A study of Mus musculus with 8 samples.

Results

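YFP+ regulatory T cells (Tregs) of SRC-3 knockout mice were compared with YFP+ Tregs of control mice. The comparison took in 4 of the 8 RNA sequencing libraries, chosen by the genotype and sort in their labels, and 14134 of the 55487 genes in the table, those with at least 1 FPKM in at least 2 of the 8 libraries. FPKM count the sequenced fragments of a gene, corrected for transcript length and library size. At the edge of that filter, the second highest library of 298 genes lay between 1 and 1.1 FPKM and that of 292 genes left out lay between 0.9 and 1 FPKM. The study asked which transcripts differ between knockout and control Tregs, with the anti-tumor effect of the knockout cells in view. All cells came from spleens of mice that carried no tumor, and total RNA was turned into libraries by SMART-Seq v4, a kit for low input.

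The control group, WT YFP+, held libraries 23 and 24 of genotype WT Control on a C57BL/6 background. The knockout group, KO YFP+, held libraries 84 and 85 of genotype SRC-3 KO on a mixed C57BL/6 and 129SvEv background. Values of the other groups are given beside the results. These were KO YFP- and SRC-3ff. KO YFP- held libraries of YFP- Tregs of genotype SRC-3 KO, also numbered 84 and 85. Its labels give the same mixed C57BL/6 and 129SvEv background as KO YFP+. SRC-3ff held libraries 68 and 72 of genotype WT Control 2 on a 129SvEv background, and its label names Tregs with no YFP sort. Genotype and strain differ together between WT YFP+ and KO YFP+ and cannot be told apart in this comparison. What YFP marks is not stated in the labels, nor which part of the gene is deleted, in which cells the deletion was driven, how old the animals were, or whether each library came from 1 animal. With 2 libraries a group, p-values measure the spread between these libraries, which may be technical.

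SRC-3, encoded by Ncoa3, belongs to the p160 family of coactivators, which bind nuclear receptors and other transcription factors and bring in histone acetyltransferases. Tregs are CD4 T cells that restrain other immune cells, and their identity depends on the transcription factor Foxp3. The AP-1 factors, dimers of Fos and Jun family proteins, are transcribed within minutes of a stimulus, T cell receptor engagement among them.

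The sum of FPKM per library ran from 384107 to 416393, and 12573 to 13251 genes reached at least 1 FPKM. The read depth is unknown. All 13 mitochondrially encoded protein genes were listed at 0 in every library, so a listed 0 may be a failed estimate. The T cell genes Cd4 and Cd3e were present throughout (140 to 212 and 216 to 459 FPKM). Foxp3 measured 31.0 and 19.9 FPKM in the control libraries and 21.0 and 22.9 in KO YFP+, so the compared groups overlapped (log2 fold change -0.17 ± 0.26, limma adjusted p = 0.87). Those levels were below the 113 to 205 FPKM of the other 4 libraries, and the labelled cell type has its defining gene at a low level in both compared groups. The sum of 24 Treg identity genes ran from 1731 to 1920 FPKM in the compared libraries. That lay within the 1698 to 2122 FPKM of the other 4 libraries. A sum gives most weight to its highest genes. In bulk samples, fewer cells of a type and less RNA per cell cannot be told apart, and the cause of the low Foxp3 level was not tested.

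Ncoa3 (ENSMUSG00000027678, chromosome 2, 165992636 to 166073242, GRCm38), the targeted gene, measured 46.3 FPKM in WT YFP+ 23 and 42.7 in WT YFP+ 24. KO YFP+ 84 had 10.9 FPKM and KO YFP+ 85 had 10.2. Pairs of values below are in this order of libraries. Both KO YFP+ libraries lay below every other library, where Ncoa3 ran from 32.1 to 49.7 FPKM, and transcript of the gene was still detected in them. KO YFP-, of the same genotype label, had 32.1 and 32.2 FPKM. The log2 fold change was -1.98 ± 0.16 (95% interval -2.35 to -1.61, limma adjusted p = 0.0034; errors of log2 fold changes are limma's standard errors). The call held under every alternative tried, but narrowly with only the 4 compared libraries in the fit (limma adjusted p = 0.04997, threshold 0.05). Folds here and below are on the log2(FPKM + 1) scale, which understates the change of low genes.

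**Figure D1:**
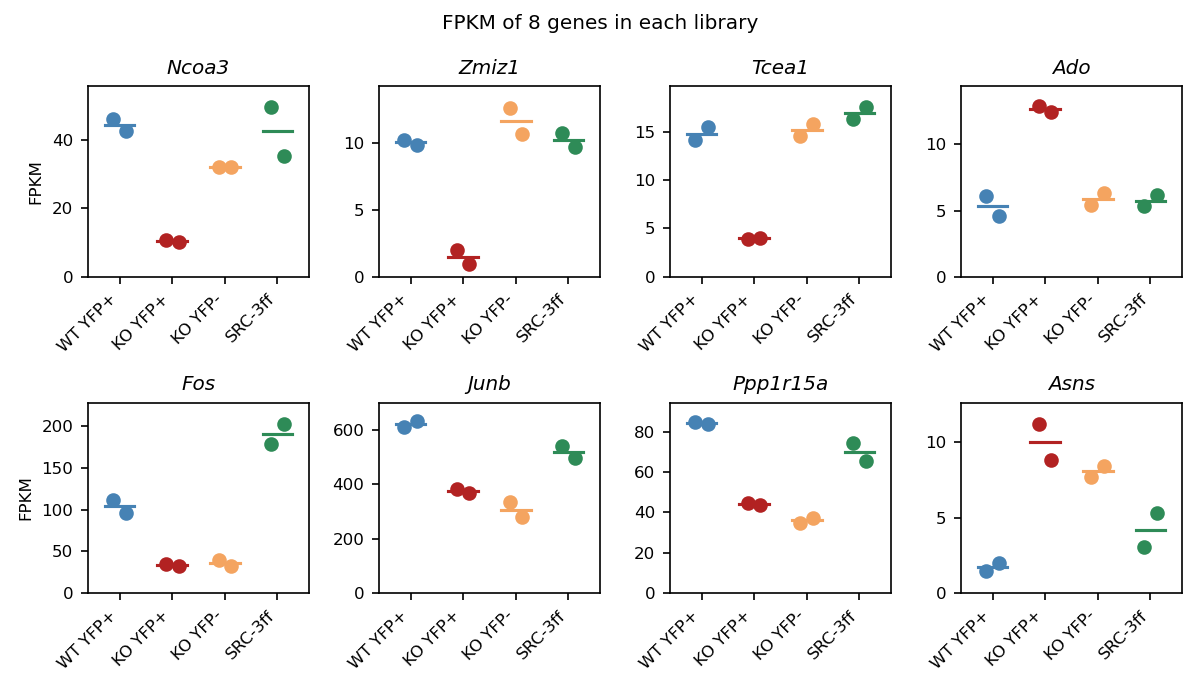
FPKM (linear axis from 0) of 8 genes in each library, 2 points and their mean (bar) per group. Ncoa3, Zmiz1 and Tcea1 were lowest and Ado was highest in the 2 KO YFP+ libraries among all 8, whereas Fos, Junb and Ppp1r15a were as low or lower in the YFP- cells of the knockout mice.

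In all, 107 genes passed the threshold (limma adjusted p below 0.05), which is 0.757% of those tested. Of these, 43 were higher in KO YFP+, 0.304% of genes tested, and 64 were lower, 0.453%. Protein-coding genes made up 54 of the calls (15 higher and 39 lower, 0.528% of 10224 tested). Antigen receptor segments made up 29 (16 higher and 13 lower, 6.53% of 444), pseudogenes 15 (10 higher and 5 lower) and other RNAs 9 (2 higher and 7 lower). The absolute log2 fold change of called genes ran from 0.59 to 4.89 with a median of 1.64, and it reached 1 in 89 of them. Over all tested genes the median log2 fold change was 0.01. The libraries of the compared groups did not overlap in 5657 genes, 40.0% of those tested, so the absence of overlap alone sets a called gene little apart. For 1 gene taken alone, the smallest two-sided p that an exact permutation test of these 4 libraries allows is 0.333, so each call draws on limma's pooled estimate of the spread. Leaving out each of the 4 compared libraries in turn, 30 of the 107 calls held, 11 of the 54 protein-coding ones among them, and with only the 4 compared libraries in the fit 22 of the 107 held.

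**Figure D2:**
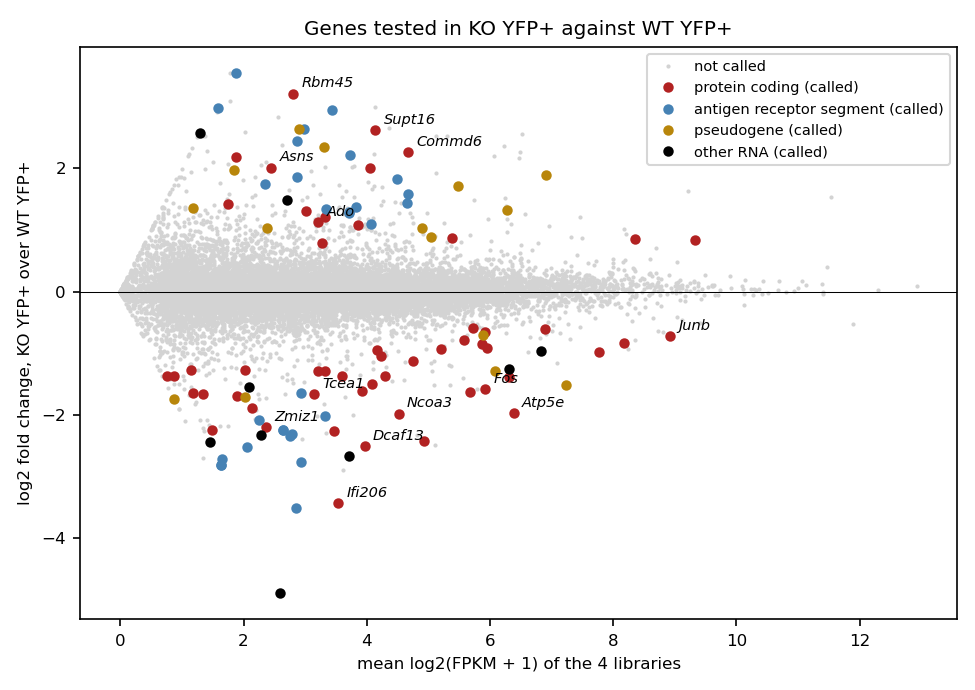
Log2 fold change of KO YFP+ over WT YFP+ against the mean log2(FPKM + 1) of the 4 libraries, for the genes tested. Coloured points are the 107 called genes by class; the gene with the largest change, at -4.89, is the long noncoding RNA Gm2682.

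In 16 of the called protein-coding genes the KO YFP+ libraries lay outside the range of all other 6 libraries. In 9 of these, H2-DMa, Asns, Ada, Serinc3 and Prex1 among them, the WT YFP+ libraries lay outside on the opposite side, with the other 4 libraries between. In the remaining 7, Ncoa3, Zmiz1, Tcea1, Tox2, Sdc4, Ado and Klc2, the WT YFP+ libraries did not both lie to one side of all the others. The 9 are 16.7% of the 54 called protein-coding genes and the 7 are 13.0%. Among all 5657 genes without overlap of the compared groups the shares were 1.40% and 26.0%. The calls were selected on the same libraries, so these shares are a description with no test. Tox2, Sdc4 and Klc2 were described after their values were seen, except that Tox2 was also named by a gene list. For each of the 7, values against SRC-3ff and KO YFP- are set beside the main comparison. Those comparisons share the KO YFP+ libraries with it and are not independent of it. The 7 were also grouped by where the SRC-3ff and KO YFP- libraries lay, so the direction against both was fixed in advance. Differences and p-values against these groups are therefore a description and no further support. For Ncoa3 the log2 fold change was -1.90 against SRC-3ff (limma adjusted p = 0.0027) and -1.52 against KO YFP- (adjusted p = 0.0050). Against SRC-3ff 10.2% of tested genes passed, and against KO YFP- 4.90%.

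Zmiz1 (ENSMUSG00000007817, chromosome 14, 25459185 to 25666743) encodes a PIAS-like transcriptional coactivator. It measured 10.2 and 9.83 FPKM in the WT YFP+ libraries and 2.00 and 0.929 in the KO YFP+ libraries. The knockout libraries were the lowest of the 8, and the other 4 libraries held 9.70 to 12.6 FPKM. KO YFP+ differed from WT YFP+ by a log2 fold change of -2.20 ± 0.22 (limma adjusted p = 0.0083). It was -2.22 against SRC-3ff (adjusted p = 0.0040) and -2.39 against KO YFP- (adjusted p = 0.0038). The call against WT YFP+ was lost without WT YFP+ 23 or WT YFP+ 24 (adjusted p up to 0.060), without a filter on low values and with only the 4 compared libraries (0.11).

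Tcea1 (ENSMUSG00000033813, chromosome 1, 4857814 to 4897909) encodes the elongation factor TFIIS, which rescues stalled RNA polymerase II. It measured 14.1 and 15.5 FPKM in the WT YFP+ libraries and 3.89 and 4.06 in the KO YFP+ libraries. The knockout libraries again lay far below the other 6, where the highest value was 17.6 FPKM in SRC-3ff 72. Tcea1 changed by -1.67 ± 0.12 on the log2 scale (limma adjusted p = 0.0019), and by -1.85 against SRC-3ff and -1.70 against KO YFP- (adjusted p = 0.0015 and 0.0024). The call held without each library and was lost with only the 4 compared libraries (adjusted p = 0.078). Tcea1 shares near-identical sequence with the pseudogene Tcea1-ps1 (99.3% identity over 904 bases), so reads could be divided between them. Tcea1-ps1 measured 38.1 and 32.8 FPKM in the control libraries and 28.4 and 34.3 in KO YFP+, overlapping ranges. A second copy, the pseudogene Gm12112 (identical over 231 bases), measured 21.4 and 19.1 against 13.96 and 12.4 FPKM, lower without overlap but not past the threshold (adjusted p = 0.14).

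Tox2, an HMG-box transcription factor of helper T cells, measured 1.63 and 1.80 FPKM in the control libraries and 0.0530 and 0.0485 in KO YFP+. The other 4 libraries held 2.57 to 4.99 FPKM, so the knockout YFP+ cells were the only libraries with almost no Tox2. This was a log2 fold change of -1.37 ± 0.18 (limma adjusted p = 0.029), and the call was lost without each compared library in turn (adjusted p up to 0.17). Against SRC-3ff it was -1.84 (adjusted p = 0.0041) and against KO YFP- -2.36 (adjusted p = 0.0032).

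Sdc4, the cell surface proteoglycan syndecan-4, measured 4.83 and 5.95 FPKM in the control libraries against 1.27 and 2.03 in KO YFP+. The KO YFP- libraries lay between, at 3.20 and 3.32 FPKM, and SRC-3ff lay at the WT YFP+ level (5.48 and 4.99). Its log2 fold change of -1.28 ± 0.19 (limma adjusted p = 0.045) lost its call without any 1 of the 8 libraries. Sdc4 differed by -1.25 on the log2 scale from SRC-3ff (adjusted p = 0.015), and by -0.70 from KO YFP-, which did not pass (adjusted p = 0.10).

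Higher genes of this kind were Ado and Klc2. Ado (ENSMUSG00000057134, chromosome 10, 67544511 to 67548955), a thiol dioxygenase, measured 6.08 and 4.59 FPKM in the WT YFP+ libraries and 12.9 and 12.5 in the KO YFP+ libraries. All other libraries lay between 5.31 and 6.34 FPKM, close to the control. Ado changed by 1.12 ± 0.17 on the log2 scale (limma adjusted p = 0.040), with 1.03 against SRC-3ff (adjusted p = 0.016) and 0.99 against KO YFP- (adjusted p = 0.022). Klc2, a kinesin light chain, measured 1.02 and 1.10 FPKM in the control libraries and 4.91 and 4.17 in KO YFP+, with 0.913 to 2.54 in the other 4 libraries. Its log2 fold change was 1.43 ± 0.20 (limma adjusted p = 0.031), beside 1.49 against SRC-3ff (adjusted p = 0.0093) and 0.83 against KO YFP- (adjusted p = 0.064). Neither the Ado nor the Klc2 call held with any 1 of the compared libraries left out, with adjusted p up to 0.21 and 0.18.

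H2-DMa, a chain of the chaperone that loads peptides onto MHC class II, was also highest in KO YFP+. It measured 29.2 and 30.9 FPKM in the WT YFP+ libraries and 54.5 and 56.5 in the KO YFP+ libraries. The other 4 libraries lay between the groups but near the control, at 31.2 to 36.3 FPKM. For H2-DMa the log2 fold change was 0.86 ± 0.10 (limma adjusted p = 0.016), lost without any 1 of the compared libraries (adjusted p up to 0.14). Markers of B cells, which use this pathway, were also higher in KO YFP+: summed over 16 markers they came to 82.6 to 104 FPKM in the control libraries and 119 to 133 in KO YFP+. Of the markers that define B cells, Pax5 was at 0 in all 4 compared libraries, and Ms4a1 was at or below 0.0363 FPKM. Pax5 was at most 0.00765 FPKM in the other 4 libraries too. Of the 16 markers, 5 were higher in KO YFP+ without overlap, among them Cd79b, a chain of the B cell receptor, at 13.1 and 13.7 against 21.9 and 21.2 FPKM, and Cd74, the invariant chain of MHC class II, at 31.1 and 39.3 against 58.1 and 47.8. Fcer2a was lower, from at most 2.7e-05 FPKM to 0. Among the 10 markers that were tested, 5 did not overlap (50%), beside 40.0% of all tested genes, and 0 passed by limma. The summed markers were much higher in KO YFP- and SRC-3ff, at 291 to 738 FPKM, where H2-DMa was near its WT YFP+ level. The part of B cells in the H2-DMa call was not tested.

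Fos (ENSMUSG00000021250, chromosome 12, 85473890 to 85477273), Junb (ENSMUSG00000052837, chromosome 8, 84974484 to 84978718) and Ppp1r15a (ENSMUSG00000040435, chromosome 7, 45522916 to 45526268) were the 3 called immediate early genes. Fos and Junb are AP-1 subunits, and Ppp1r15a encodes GADD34, which directs the phosphatase that reverses eIF2 alpha phosphorylation. Since they fell together, the 250 bases before the RefSeq start of each gene are shown (GRCm38.p6). Fos lies at chr12:85473640-85473889 on the plus strand, Junb at chr8:84978749-84978998 on the minus strand and Ppp1r15a at chr7:45526269-45526518 on the minus strand. Capitals mark matches to TGACG, the core that cyclic AMP response elements share, searched on both strands.
Fos promoter: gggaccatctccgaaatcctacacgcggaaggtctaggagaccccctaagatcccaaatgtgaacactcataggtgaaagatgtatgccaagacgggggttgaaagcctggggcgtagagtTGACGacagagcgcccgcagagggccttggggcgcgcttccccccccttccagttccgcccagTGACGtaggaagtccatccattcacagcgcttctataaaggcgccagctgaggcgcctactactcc
Junb promoter: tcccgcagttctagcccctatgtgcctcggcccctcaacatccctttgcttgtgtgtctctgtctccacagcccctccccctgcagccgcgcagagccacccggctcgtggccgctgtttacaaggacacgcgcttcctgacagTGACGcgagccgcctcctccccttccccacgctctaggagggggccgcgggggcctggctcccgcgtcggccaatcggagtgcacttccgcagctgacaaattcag
Ppp1r15a promoter: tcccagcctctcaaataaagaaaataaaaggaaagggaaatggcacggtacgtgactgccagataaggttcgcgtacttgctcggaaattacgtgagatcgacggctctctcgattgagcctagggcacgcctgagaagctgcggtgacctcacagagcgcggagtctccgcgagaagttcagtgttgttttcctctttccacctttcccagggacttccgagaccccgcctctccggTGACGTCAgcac
The Fos matches begin 129 and 66 bases before the start and the Junb match 106 bases before it. In Ppp1r15a matches on both strands, 12 and 9 bases before the start, overlap to form the whole element TGACGTCA. Of 32851 promoters of this length in the RefSeq table, 17.8% hold TGACG and 1.55% hold TGACGTCA. A match of letters is not a measured binding site.

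Fos measured 112 and 96.4 FPKM in the WT YFP+ libraries and 35.2 and 33.0 in the KO YFP+ libraries. The KO YFP- libraries were as low (39.5 and 32.4 FPKM), and SRC-3ff was higher than every other library (179 and 203). Fos changed by -1.58 ± 0.13 on the log2 scale (limma adjusted p = 0.0039), and this call held under every alternative.

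Junb measured 611 and 630.0 FPKM in the control libraries and 381 and 369 in KO YFP+. KO YFP- was lower still (333 and 280.4), whereas SRC-3ff lay between the compared groups (539 and 495). Its log2 fold change of -0.72 ± 0.11 (limma adjusted p = 0.042) lost its call without any 1 of the 8 libraries.

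Ppp1r15a measured 84.9 and 84.0 FPKM in the control libraries and 44.7 and 43.7 in KO YFP+, while KO YFP- stood at 34.8 and 37.3 FPKM, SRC-3ff at 74.4 and 65.4. In KO YFP-, Ncoa3 itself was at 32.1 and 32.2 FPKM, beside 10.9 and 10.2 in KO YFP+. For Ppp1r15a, as for Fos and Junb, both knockout sorts lay below both controls. A log2 fold change of -0.92 ± 0.09 (limma adjusted p = 0.0092) was lost without any 1 of the compared libraries (adjusted p up to 0.085).

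Of the 11 tested AP-1 subunits (of 15 listed), 2 fell and 0 rose, 9 were below 0, and the median log2 fold change was -0.25. Over all genes the median was 0.01, with 48.1% below 0, 0.453% called lower and 0.304% called higher. At an unadjusted limma p below 0.05 were 4 of the 11 AP-1 subunits, beside 10.4% of all tested genes. Jun measured 156 and 157 FPKM in the control libraries and 112 and 102 in KO YFP+ and did not pass (log2 fold change -0.54, limma adjusted p = 0.19). Of 38 other tested immediate early genes (of 39 listed), 1 fell, 0 rose, 30 were below 0 and 14 were at an unadjusted limma p below 0.05. The median of these 38 genes was -0.24. Among them Dusp6, a phosphatase that inactivates ERK, measured 19.6 and 21.1 FPKM against 11.0 and 8.24 in KO YFP+ (adjusted p = 0.090). Dusp1, a phosphatase of MAP kinases, measured 115 and 164 against 66.6 and 71.5 (adjusted p = 0.15). Nr4a1, which follows T cell receptor signalling and was added after its values were seen, measured 48.4 and 48.9 against 47.2 and 38.0 (adjusted p = 0.82). Of 32 tested proximal T cell receptor signalling genes 0 passed, with 17 above and 15 below 0 and a median of 0.02.

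Asns (ENSMUSG00000029752, chromosome 6, 7675169 to 7693254), the asparagine synthetase, measured 1.48 and 1.98 FPKM in the WT YFP+ libraries and 11.2 and 8.81 in the KO YFP+ libraries. The remaining libraries lay between the groups, with KO YFP- at 7.73 and 8.43 and SRC-3ff at 3.07 and 5.29 FPKM. Asns changed by 2.01 ± 0.24 on the log2 scale (limma adjusted p = 0.017), lost without any 1 of the compared libraries (adjusted p up to 0.12). Asns is a target of ATF4, the transcription factor of the amino acid stress response, and was the 1 gene of 30 tested on the ATF4 list to pass. That list had 10 members above and 20 below 0 and a median of -0.10, and Atf4 itself, added after its values were seen, measured 36.5 and 37.1 against 33.8 and 34.6 FPKM (adjusted p = 0.81). Cebpb, a partner of ATF4, was lower in value, at 14.7 and 12.1 against 7.21 and 6.71 (limma adjusted p = 0.081). Cebpb lies 1.70 Mb beyond Ncoa3, and the KO YFP- and SRC-3ff libraries held 13.9 to 24.2 FPKM.

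Most called genes had a different order over the libraries. In 73 of the 107 (36 of the 54 protein-coding) the WT YFP+ libraries lay outside the range of all other 6. The other 6 libraries were not always alike: in 13 of these 73 KO YFP+ also passed against SRC-3ff, KO YFP- or both, and in 60 it passed against neither, which does not show that the levels were equal. In 9 the KO YFP+ libraries lay outside the other 6, in 22 both did, with the other 4 between, and in 3 neither did. Among all 5657 genes without overlap the first 2 counts were 1770 and 1473, or 31.3% and 26.0%. The calls were selected on the same WT YFP+ and KO YFP+ libraries, so these counts are a description with no test.

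**Figure D3:**
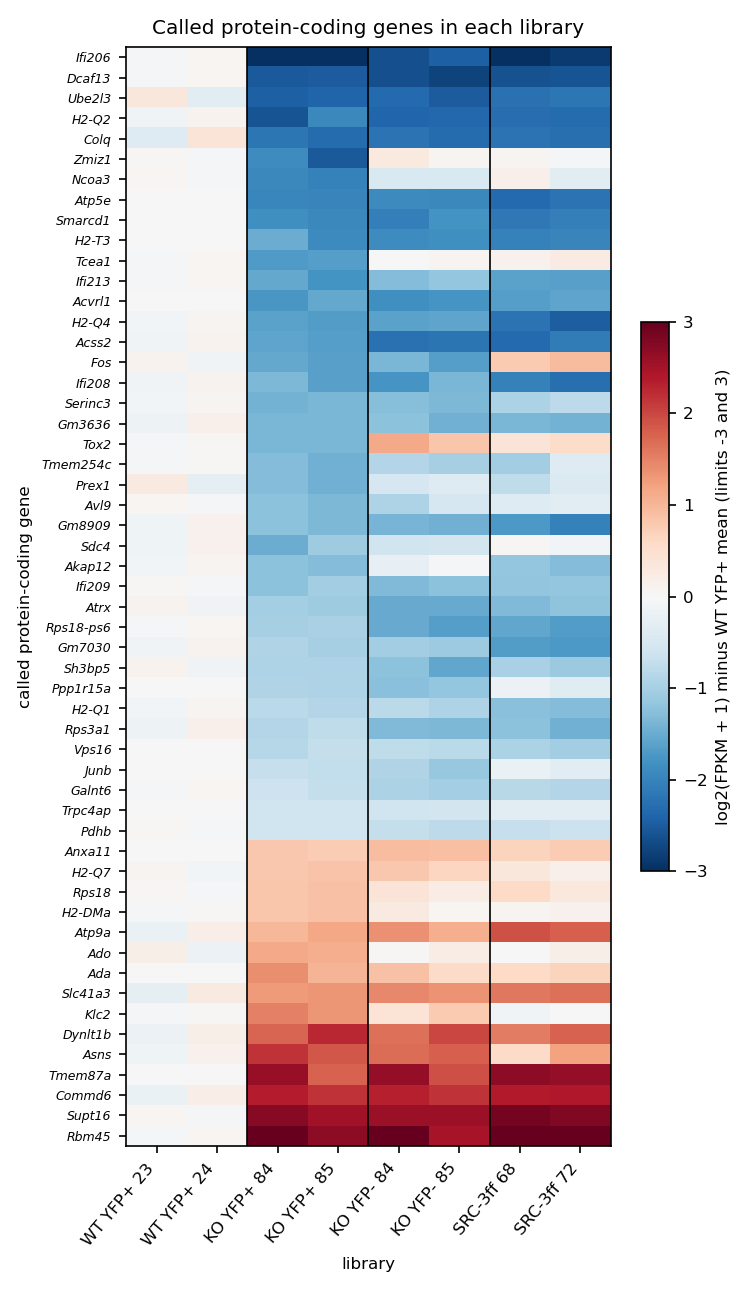
The 54 called protein-coding genes (rows, ordered by log2 fold change of KO YFP+ over WT YFP+) in the 8 libraries, as log2(FPKM + 1) minus the WT YFP+ mean; colours stop at -3 and 3. In 36 rows WT YFP+ but not KO YFP+ lies outside the range of the other 6 libraries, and in 7 rows, Ncoa3, Zmiz1 and Tcea1 among them, KO YFP+ does and WT YFP+ does not.

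Among the genes that set WT YFP+ apart, Supt16 (ENSMUSG00000035726, chromosome 14, 52160414 to 52197416), a subunit of the FACT histone chaperone, measured 6.44 and 5.76 FPKM in the WT YFP+ libraries and 46.3 and 39.5 in the KO YFP+ libraries. The other 4 libraries held 40.7 to 51.0 FPKM, the knockout level. The log2 fold change of 2.63 ± 0.11 (limma adjusted p = 0.00053) held under every alternative, and that against SRC-3ff was -0.20 (adjusted p = 0.29). Commd6, a COMM domain protein, followed the same order, with 9.23 and 12.3 FPKM in the control libraries and 59.0 and 51.4 in KO YFP+.

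Atp5e (ENSMUSG00000016252, chromosome 2, 174461072 to 174464105), the epsilon subunit of ATP synthase, measured 167 and 162 FPKM in the WT YFP+ libraries and 41.4 and 41.0 in the KO YFP+ libraries. The other 4 libraries, at 32.0 to 43.0 FPKM, did not rise above the knockout group by more than 2 FPKM. Its log2 fold change was -1.97 ± 0.08 (limma adjusted p = 0.00053). It was the 1 called gene among 17 tested ATP synthase subunits, whose median was 0.15 with 12 above 0. Dcaf13, a ribosome biogenesis protein, measured 34.7 and 38.0 FPKM in the control libraries and 5.47 and 5.61 in KO YFP+, with 4.47 to 5.17 elsewhere (log2 fold change -2.51 ± 0.12, limma adjusted p = 0.00081).

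The Ifi200 family encodes interferon-inducible nucleic acid sensors, and 4 of its 11 tested genes (of 17 listed) fell while 0 rose, with a median of -0.25. The shares over all tested genes were 0.453% lower and 0.304% higher. Ifi206 measured 35.1 and 38.8 FPKM in the control libraries against 3.22 and 1.93 in KO YFP+ (log2 fold change -3.43 ± 0.23, limma adjusted p = 0.0019), and Ifi213 measured 3.33 and 3.71 against 0.559 and 0.311. Ifi208 measured 25.5 and 29.6 against 10.2 and 8.18, and Ifi209 measured 40.0 and 37.6 against 16.0 and 18.4. In each of the 4 the KO YFP- and SRC-3ff libraries lay with KO YFP+, and Ifi206 and Ifi213 are near-identical over part of their length, so their reads may be divided. The wider type I interferon response list had 0 of 37 tested members past the threshold, with 14 above and 23 below 0 and a median of -0.03, and the interferon gamma response list 0 of 33, with 25 above 0 and a median of 0.12.

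Among MHC class I and class Ib genes, 1 of 18 tested members rose and 4 fell (24 listed, median -0.06), beside 0.757% of all tested genes called in either direction. H2-Q4 measured 83.6 and 94.9 FPKM in the control libraries against 28.8 and 27.2 in KO YFP+ (log2 fold change -1.64 ± 0.12, limma adjusted p = 0.0021), and this call held under every alternative. H2-Q2 measured 21.4 and 25.1 against 3.04 and 5.33, H2-T3 measured 5.73 and 5.68 against 1.40 and 0.798, and H2-Q1 measured 72.7 and 82.7 against 44.0 and 41.5. H2-Q7, which encodes the Qa-2 antigen, went the other way, at 509.6 and 453 against 839 and 872 (adjusted p = 0.032, lost without any 1 of the 8 libraries). These genes are polymorphic between strains and share sequence, and single members are uncertain.

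T cell receptor alpha variable segments made up 27 of the 29 called segments, 14 higher and 13 lower. Trav12-2 measured 22.3 and 24.1 FPKM in the control libraries and 1.15 and 1.12 in KO YFP+ (log2 fold change -3.51, limma adjusted p = 0.0019). Trav8d-1 went from 5.26 and 5.06 to 27.8 and 27.5 (2.22, limma adjusted p = 0.0019). Both were at the KO YFP+ level in KO YFP- and SRC-3ff, where Trav12-2 was at most 1.34 and Trav8d-1 at least 20.1 FPKM. Of the 29 called segments, 21 have a near-identical copy with at least 1 FPKM, and these segments were picked after their values were seen. The immunoglobulin segments Igkv12-46 and Ighv5-6 were the other calls. They were at or below 0.167 FPKM in WT YFP+, at 5.84 and 9.42 and at 14.7 and 9.06 in KO YFP+, and several fold higher in KO YFP- and SRC-3ff (28.9 to 236). Plasma cells and B cells carry such segments. In sum, 12 plasma cell markers came to 151 to 197 FPKM in the control libraries and 149 to 178 in KO YFP+, overlapping ranges, and the B cell sums are given above. The part of either cell type in these 2 calls was not tested.

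Near-identical copies, meaning another locus matching at 97% identity or more over at least 200 bases, were present at 1 FPKM or more for 52 of the 107 called genes, 18 of the 54 protein-coding genes and 12 of the 15 pseudogenes. Some called genes moved against their copy, and the family sums changed less than the single genes. Rps3a1, a protein of the small ribosomal subunit, measured 345 and 424 FPKM in the control libraries and 206 and 224 in KO YFP+ (log2 fold change -0.83, limma adjusted p = 0.045). Its pseudogene Rps3a3 went from 55.9 and 68.0 to 225 and 239.6 (1.89, adjusted p = 0.0019). Rps3a1 summed with its 5 copies came to 765 and 916 FPKM in the control libraries and 902 and 939 in KO YFP+, overlapping ranges.

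Rps18, another small subunit protein, rose from 246 and 237 FPKM to 429 and 447 (limma adjusted p = 0.031), while Rps18-ps6 fell from 292 and 315 to 152 and 155 (adjusted p = 0.0073). Rps18 with its 6 copies summed to 1197 and 1216 FPKM in the control libraries and 1135 and 1178 in KO YFP+, lower without overlap. The pseudogene Gm3375 rose from 23.3 and 23.7 to 75.7 and 83.6 FPKM (1.72, limma adjusted p = 0.0019), and the proteasome subunit gene Psmb5, which matches it at 98.9% over 796 bases, measured 99.98 and 91.6 against 54.5 and 65.4 (adjusted p = 0.070). The 2 together came to 123 and 115 FPKM in the control libraries and 130.2 and 149 in KO YFP+, higher without overlap. The microRNA gene Mir686, called lower (126 and 116 against 46.7 and 54.4 FPKM), lies inside Psmb5, and reads of the 2 cannot be told apart without strand.

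Other copies did not offset the change. Ube2l3, a ubiquitin-conjugating enzyme, fell from 87.6 and 55.2 to 11.99 and 12.4 FPKM, and its sum with 7 copies still went from 175 and 145 to 99.0 and 97.7. For Ncoa3, Zmiz1, Fos, Junb, Ppp1r15a, Supt16, Commd6, Dcaf13, Atp5e, Asns, Ada, Ado, Klc2, Tox2 and H2-DMa no such copy was found. Rps3a1, Rps3a3, Gm3375, Psmb5, Mir686 and Rps18-ps6 were described after their values were seen.

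Called genes were unevenly placed. With receptor segments left out, 2.13% of tested genes passed on chromosome 14 (10 of 469), 2.02% on chromosome 17 (15 of 742, 7 of them H2 genes of the MHC), 1.27% on chromosome 2 (13 of 1022) and 1.11% on chromosome 15 (6 of 540). On chromosome 4, 0 of 825 passed by limma. Another called gene lay within 1 Mb of 36 of the 78 called non-segment genes (46.2%), against 9.84% of all 13665 tested non-segment genes. These counts were chosen after the calls were seen.

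**Figure D4:**
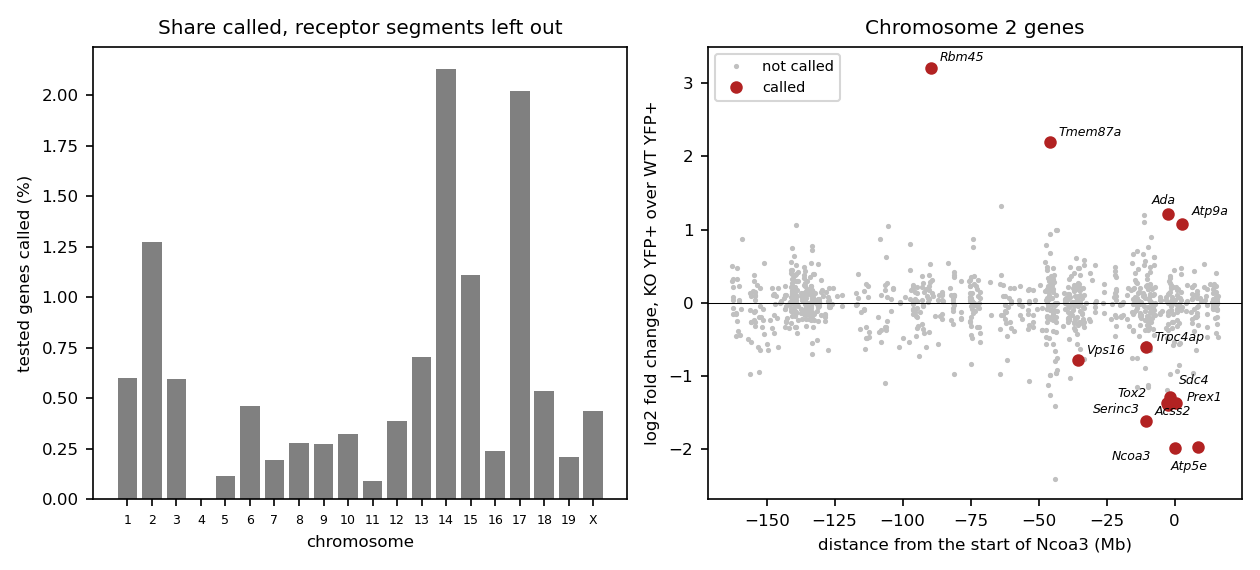
Left, percent of tested genes called on each chromosome, receptor segments left out. Right, log2 fold change of every tested chromosome 2 gene against its distance from the start of Ncoa3 in Mb, called genes in red; 6 of the 79 other genes within 5 Mb of Ncoa3 were called.

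Around Ncoa3, 6 of 79 tested genes within 5 Mb passed (7.59%, 2 higher and 4 lower), 1 of 84 at 5 to 10 Mb, 2 of 126 at 10 to 20 Mb, 2 of 210 at 20 to 50 Mb and 1 of 522 farther away (0.192%). Serinc3, a membrane protein of the serine incorporator family, lies 2.37 Mb before Ncoa3. It measured 119.6 and 136 FPKM in the WT YFP+ libraries and 47.2 and 49.0 in the KO YFP+ libraries, with 49.3 to 73.5 in the other 4 libraries. Serinc3 changed by a log2 fold change of -1.39 ± 0.10 (limma adjusted p = 0.0022), and the call held without each library. Prex1, a Rac exchange factor 0.574 Mb beyond Ncoa3, measured 37.1 and 24.8 FPKM against 11.8 and 10.6 (adjusted p = 0.040).

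Ada (ENSMUSG00000017697, chromosome 2, 163726584 to 163750239), the adenosine deaminase, lies 2.27 Mb before Ncoa3. It measured 5.43 and 5.64 FPKM in the WT YFP+ libraries and 16.2 and 12.4 in the KO YFP+ libraries. KO YFP- and SRC-3ff lay between the groups, at 8.74 to 11.1 FPKM. Ada changed by a log2 fold change of 1.21 ± 0.17 (limma adjusted p = 0.032), lost without any 1 of the compared libraries (adjusted p up to 0.16). Ada was the 1 called gene of 15 tested for adenosine and purine handling (median 0.19, 8 above 0). Nt5e, the ectonucleotidase CD73 that makes adenosine, measured 50.5 and 45.7 against 33.9 and 36.8 (adjusted p = 0.19), and Entpd1, CD39, measured 3.28 and 4.46 against 6.14 and 7.09 (adjusted p = 0.36).

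The other called neighbours of Ncoa3 were Tox2 and Sdc4, described above, and Atp9a, a phospholipid flippase that rose from 7.68 and 10.4 to 18.9 and 21.4 FPKM (adjusted p = 0.047) and stood at 20.3 to 36.2 in the other 4 libraries. In 5 of the 6 KO YFP+ lay outside all other libraries, Atp9a being the exception, and in Ada, Serinc3 and Prex1 WT YFP+ lay outside on the opposite side as well. Beside Zmiz1 on chromosome 14, Anxa11, a phospholipid-binding annexin 0.383 Mb away, rose (6.36 and 6.33 against 11.9 and 11.5 FPKM, limma adjusted p = 0.032) and Tmem254c, 0.605 Mb away, fell. Both had KO YFP- on the KO YFP+ side of the control, unlike Zmiz1. Both also have near-identical copies, so their reads could be divided. Tmem254c is identical over 1211 bases to Tmem254a and Tmem254b, which were lower but did not pass (limma adjusted p = 0.12 and 0.061). Anxa11 is identical over 657 bases to the pseudogene Gm2260, which was higher but did not pass (limma adjusted p = 0.13).

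Genes that characterise Tregs did not pass. Of 24 tested Treg identity genes 0 passed by limma (25 listed), with 10 above and 14 below 0 and a median of -0.09. Of the 24, 6 were at an unadjusted limma p below 0.05, beside 1476 of all 14134 tested genes (10.4%). Nrp1, a surface receptor of thymic Tregs, measured 47.3 and 54.0 FPKM in the control libraries and 36.2 and 37.0 in KO YFP+ (log2 fold change -0.45, 95% interval -0.72 to -0.19, limma adjusted p = 0.20). Of 26 tested suppressive effector genes (28 listed) 0 passed, while 22 were above 0, with a median of 0.20 and 6 at an unadjusted p below 0.05. Lgals3, galectin-3, measured 0.415 and 2.21 FPKM against 5.32 and 7.73 (adjusted p = 0.20), and the inhibitory receptor gene Tigit measured 8.75 and 5.50 against 24.6 and 15.3 (adjusted p = 0.27). The compared groups did not overlap for these 2 genes, and the other 4 libraries were higher than KO YFP+, at 156 to 298 FPKM for Lgals3 and 26.0 to 78.8 for Tigit.

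Genes of quiescence and lymph node homing lay mostly below 0, 18 of 20 tested, with a median of -0.21 and 0 past the threshold. Of the 20, 5 were at an unadjusted limma p below 0.05, beside 10.4% of all tested genes. Igfbp4, a binding protein of insulin-like growth factors, measured 32.2 and 23.3 FPKM in the control libraries and 15.02 and 11.2 in KO YFP+ (limma adjusted p = 0.099). Slfn2, a gene needed to keep T cells quiescent, measured 327 and 424 against 266 and 268 (adjusted p = 0.31). The homing receptor gene Ccr7 and its regulator Klf2, added after their values were seen, measured 410.0 and 490.4 against 392 and 392 FPKM, and 236 and 239 against 221 and 234.

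Cholesterol and fatty acid synthesis genes had 0 of 29 tested past the threshold, 24 below 0 and a median of -0.13. Cell cycle genes had 0 of 33, with 26 below 0 and a median of -0.13. Glycolysis genes had 0 of 21 and a median of 0.00, with Pdk1, the kinase that holds back pyruvate dehydrogenase, at 25.8 and 27.1 against 14.8 and 16.5 FPKM (limma adjusted p = 0.15) and the glycolytic enzyme Aldoa at 238 and 187 against 296 and 317 (adjusted p = 0.19).

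The SRC family and its coactivator partners had 2 of 22 tested genes lower, Ncoa3 and Zmiz1, and 0 higher, with a median of -0.06. Both were among the genes fixed for naming with earlier results known. Over all tested genes 0.304% were called higher and 0.453% lower. FACT and chromatin remodelling genes had Supt16 higher and Smarcd1, a BAF complex subunit, lower (7.47 and 7.43 against 1.36 and 1.21 FPKM) among 24 tested, with a median of 0.05. T helper lineage transcription factors had 1 of 23 lower, Tox2, and thiol and redox enzymes 1 of 21 higher, Ado.

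In all, 11 of 38 gene lists had a called member and 27 had none by limma. The lists and their members were chosen with earlier results of these data known. These counts therefore describe the lists and do not test them. The medians of those 27 ran from -0.21 (quiescence) to 0.22 (B cell markers). Beside those given above they were the corepressors, nuclear receptors, IL-2 and STAT5 pathway, NF-kB subunits, inhibitory and costimulatory receptors, chemokines, integrins, unfolded protein response, heat shock, apoptosis and TGF-beta lists and the markers of other cells. Tnfrsf14, the HVEM receptor of the costimulatory list, measured 26.3 FPKM in WT YFP+ 23 and 2.33 in WT YFP+ 24 against 34.4 and 24.8 in KO YFP+, so that a single control library set its value (adjusted p = 0.56, and 0.011 without WT YFP+ 23).

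**Figure D5:**
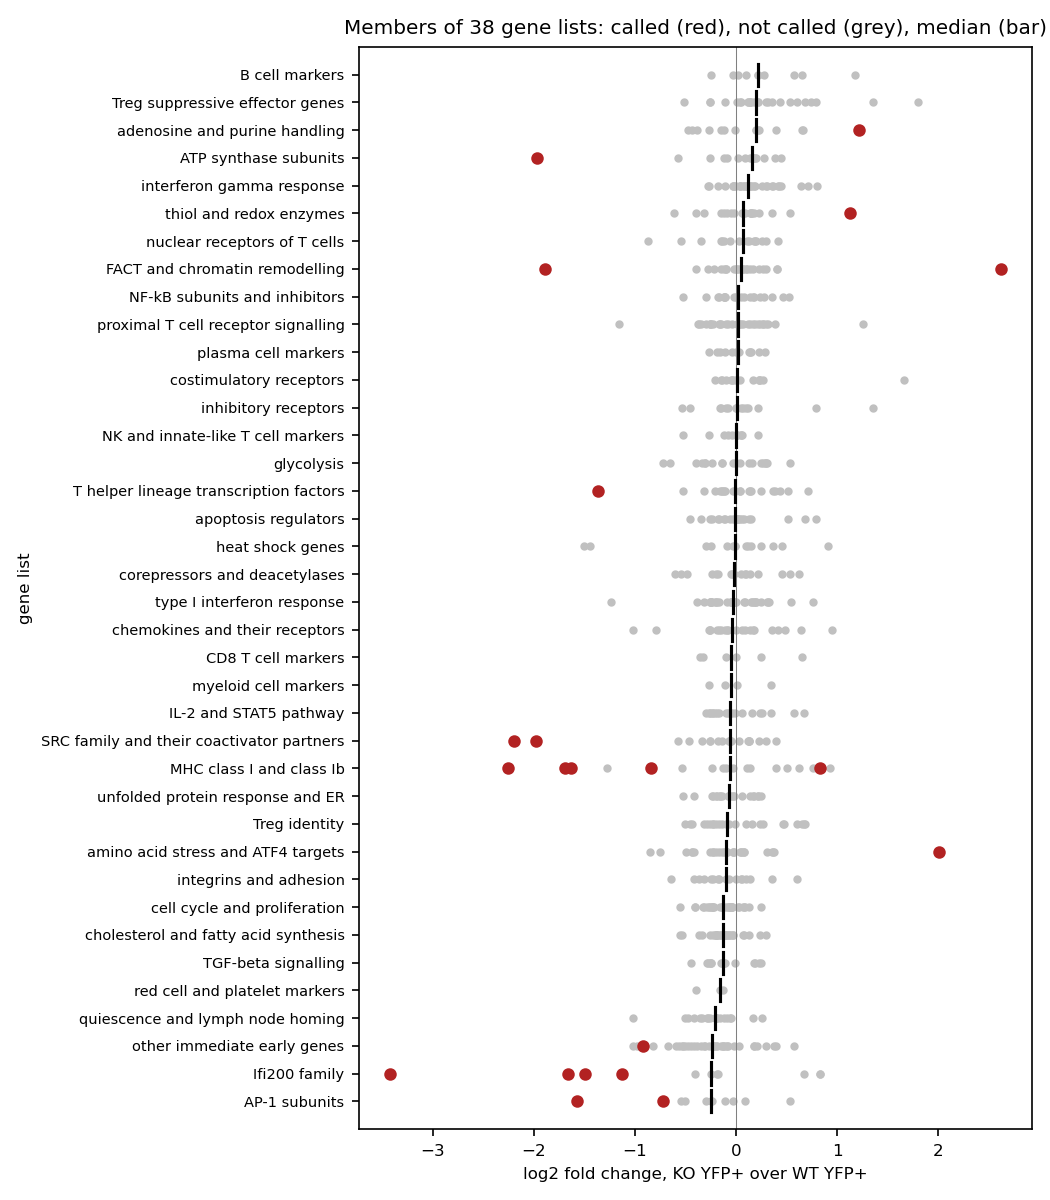
Log2 fold change of KO YFP+ over WT YFP+ for each tested member of 38 gene lists, ordered by list median (black bar); called members are red. The AP-1 and Ifi200 lists had the lowest medians, at -0.25 each, and 27 lists had no called member.

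Summed markers of NK and innate-like T cells, of myeloid cells, and of red cells and platelets were low in both compared groups. Sums of CD8 T cell, B cell and plasma cell markers were higher, at 49.7 FPKM or more in each compared library. NK and innate-like T cell markers summed to 3.16 to 5.44 FPKM in the control libraries and 3.06 to 3.28 in KO YFP+, beside 114 to 211 in the other 4 libraries. CD8 T cell markers summed to 49.7 to 53.3 and 59.2 to 77.4 FPKM, myeloid markers to 6.07 to 8.69 and 4.25 to 10.4, and red cell and platelet markers to 2.14 to 2.38 and 1.004 to 1.71. CD8 and B cell marker sums were thus higher, and red cell sums lower, in KO YFP+ without overlap. Over all tested genes 40.0% did not overlap. The CD8 sum rested mostly on Nkg7, at 33.0 and 26.3 against 56.2 and 39.2 FPKM. Cd8b1 went the other way, at 8.67 and 12.2 against 8.09 and 7.57. Of the 6 tested CD8 markers 2 were above and 3 below 0, with a median of -0.05. The part of these cell types in the called genes was not tested.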

How the data were processed

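Total RNA of splenic Tregs was sequenced in 8 libraries. The deposited table, the authors' own, lists FPKM of 55487 genes. The submitters' processing notes name Trim Galore, STAR, StringTie and the mouse build mm10 (GRCm38). Tool versions, annotation and strand setting: not given in the sources used here. Read counts cannot be recovered from StringTie's FPKM, which leaves the depth unknown and allows no counting interval. Coordinates come from GENCODE M21 on GRCm38, which matched 55227 identifiers; 114 symbols occur more than 1 time, and the plain name was kept for the identifier with the highest mean.

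Groups were compared on log2(FPKM + 1) with lmFit and a trended eBayes of limma 3.58.1 (R 4.3.3), for genes reaching 1 FPKM in 2 or more libraries, with 1 model of 4 groups over 8 libraries and Benjamini-Hochberg adjustment over all 14134 genes at a threshold of 0.05. The procedure was tested on simulated data. Named genes were Ncoa3, Fos, Zmiz1, Foxp3, Cd4 and Cd3e, the 15 largest changes in each direction among called genes without overlap whose mean reached 5 FPKM in either group and whose name is not that of a predicted gene, clone, pseudogene or receptor segment, and up to 3 members with the smallest p of each of 38 gene lists. Values are printed for part of them. The members, lists and rule were chosen with earlier results of these data known, and genes outside the rule are said to have been picked after their values were seen. Copies were sought by comparing GENCODE M21 transcripts (97% identity over 200 bases).

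Alternatives were a pseudocount of 0.1, quantile normalization, no filter, a 5 FPKM minimum, no trend, median-of-ratios scaling, only the 4 compared libraries, a replicate block on library number and each library left out. The numbers 84 and 85 are shared by KO YFP+ and KO YFP- only, and the labels do not say that they mark a shared animal; WT YFP+ and KO YFP+ share none. Tables were made with pandas 2.3.3 in Python 3.11.15 and figures with matplotlib 3.10.9.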

Additional observations from a re-analysis of the deposited data

How the results depend on the processing

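The 107 calls became 68 without a filter on low values and 25 with only the 4 compared libraries, and leaving out 1 library gave 44 (without KO YFP+ 85) to 90. Of the 43 named genes that passed, 13 held without each of the 4 compared libraries. Against SRC-3ff, 1448 calls became 567 without a filter and 537 with only the 4 libraries of that comparison, and 215 to 1190 with 1 library left out. Against KO YFP-, 693 calls became 226 without a filter, and 140 to 739 with 1 library left out; the other settings kept each count within 1.5 times. The replicate block gave 107, 1451 and 976 calls in the 3 comparisons; deviations of KO YFP+ 84 and KO YFP- 84 correlated at 0.14 across genes, and 1 such pairing shows no shared animal. The causes of these shifts were not tested. Scaling moved the median of all genes by at most 0.009 in size (-0.0059 and -0.0088). With a library left out, the log2 fold change of uncalled named genes crossed 0: -0.48 to 0.14 for Foxp3, -0.25 to 0.59 for Cd3e (-0.24 without KO YFP+ 84), -0.0081 to 0.91 for Hsph1, -0.0053 to 0.29 for Creld2, -0.012 to 0.47 for Sdc1, -0.62 to 0.077 for Trdc, -0.64 to 0.11 for Fcgr3 and -0.66 to 0.44 for Ly6c2 (0.10 without WT YFP+ 24). Gbp3 (log2 fold change 0.80, adjusted p = 0.15) passed without SRC-3ff 68 or 72 (limma adjusted p = 0.039 for each). With 1 library left in a group, its spread is taken from the others. Unknown depth limits what can be said of genes near 1 FPKM.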
